A study of Komagataella pastoris with 6 samples.

Results

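The zinc cluster genes of the methylotrophic yeast *Komagataella phaffii* were taken from the count table by their descriptions. A gene was a member if its protein description held, in any letter case, Zn(2)-Cys(6), Zn2/Cys6, C6 transcription factor, zinc cluster or Fungal specific transcription factor. This gave 18 members among 5427 genes. Of these, 11 carried the words zinc cluster, 6 carried Zn(2)-Cys(6) and 1, BQ9382_C1-0050, carried C6 transcription factor. The rule reads descriptions and no measured value, but it was chosen with earlier results of these data known.

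RNA was sequenced from 6 libraries of cultures grown for 24 h, 2 in each of 3 groups. GS115, a histidine auxotroph whose genotype is given as his4, was grown in YPA (GS115-YPA, libraries A and B). X33, a histidine prototroph with HIS4, was grown in the same medium (X33-YPA, libraries C and D). GS115 was also grown in YPA with 650 µM histidine (GS115-YPAH5x, libraries E and F). The comparisons ask how the supply of histidine shapes transcript levels in YPA, a medium with yeast extract, peptone and acetate. The growth state of the cultures and their supply of histidine cannot be told apart here, nor can the *HIS4* genotype and any other difference between the strains.

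Zinc cluster proteins are transcription factors found almost only in fungi. A short cysteine-rich domain holds a pair of zinc ions and contacts short base triplets in DNA, usually as a dimer, and Gal4 of *Saccharomyces cerevisiae* is the best known example. Many of them switch on or off the genes of one metabolic pathway, such as the use of a carbon source or the synthesis of an amino acid, and are themselves often controlled by a small molecule of that pathway rather than through their transcript level.

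The members were also looked up by gene ontology terms, which come from the same table as the descriptions. The terms used are general and neither names a zinc cluster, so they cannot show that a protein has one. Both the term for a DNA-binding transcription factor of RNA polymerase II and the term for zinc ion binding were carried by 17 of the 18 members. The exception was BQ9382_C3-3325, described as a zinc cluster protein of pre-mRNA splicing and cycloheximide resistance and assigned to the KEGG orthology group *PHF5A*, a core component of the spliceosome. It is a splicing protein and was kept only because the rule took it in. The table named 3 further members by their KEGG orthology group, namely BQ9382_C2-2830 as *CAT8*, BQ9382_C2-6870 as *ARG81* and BQ9382_C3-2340 as *LEU3*. Most others had general descriptions, and 6 of the 18 were described only as a potential fungal zinc cluster transcription factor, among them the *LEU3* group gene.

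The libraries held between 32194047 and 43447246 counts, with TMM factors between 0.894 and 1.11. Duplicates differed by more than sampling noise in all groups, with chi-square per degree of freedom at 141.1 for GS115-YPA, 69.7 for X33-YPA and 40.9 for GS115-YPAH5x. Levels are given in CPM, the usual depth-scaled count unit, with library sizes adjusted by TMM. No gene lengths were at hand, so levels are compared between libraries for 1 gene and not between genes. The only exception is that mean CPM was used to pick some of the members to name. A gene rose or fell where the quasi-likelihood test of edgeR, fitted to all 6 libraries, gave an adjusted p under 0.05 over all 5426 genes tested, and every adjusted p below comes from it. All 18 members were tested. The p-values rest on the spread between duplicate libraries, estimated over the 3 groups with information shared among genes. The labels do not say whether duplicates came from separate cultures, so this spread may not cover that between cultures. Antisense and overlapping genes may share reads, since no source used here gives the strand setting of the counting.

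In X33-YPA against GS115-YPA, 4 of the 18 members were higher, 4 were lower and 10 did not pass the test. Over all genes 33.4% were higher and 32.8% were lower, so a smaller share of members than of all genes was called in each direction. The median log2 fold change of the members was 0.09, against 0.01 over all genes. The fall exceeded a log2 fold change of -2 for BQ9382_C3-3755 and BQ9382_C1-0050, that is 2 of 18, whereas 4.26% of all genes were called at that threshold.

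In GS115-YPAH5x against GS115-YPA, 5 members were higher, 4 were lower and 9 did not pass. Over all genes 30.7% were higher and 29.1% lower. The median log2 fold change was 0.17 for the members and 0.00 over all genes. Here too 2 members passed a log2 fold change of -2, while 2.71% of all genes did. The comparisons share libraries A and B, so the values of a member in them are set side by side below and are not independent.

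**Figure D1:**
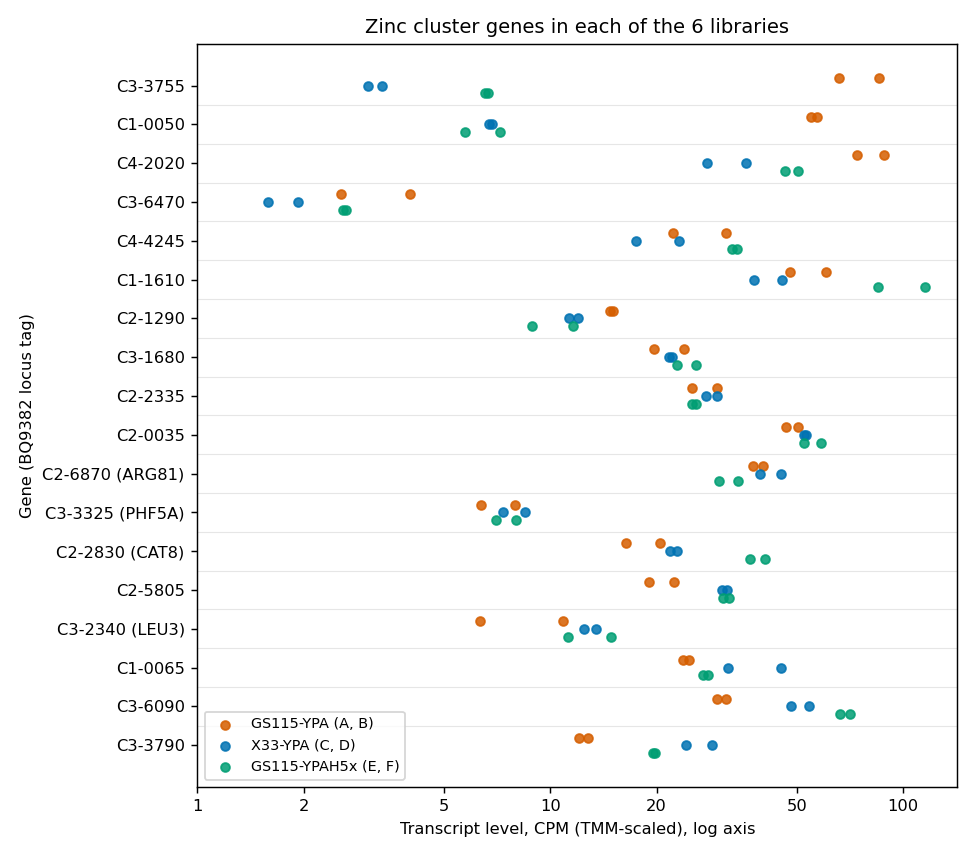
Level of each of the 18 members in each library, in CPM on a log axis, with one point per library and one row per gene, colored by group. C3-3755 and C1-0050 stand far to the right in GS115-YPA, at 54.8 CPM or more, and at or below 7.22 CPM in the other 4 libraries.

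BQ9382_C3-3755, a potential zinc cluster transcription factor with no named pathway, showed the steepest fall of the members. Its level was 65.7 and 85.2 CPM in the GS115-YPA libraries, 3.33 and 3.05 CPM in those of X33-YPA and 6.65 and 6.55 CPM in those of GS115-YPAH5x. The 3 groups did not overlap, with GS115-YPA highest and X33-YPA lowest. It fell 23.7-fold in X33-YPA (log2 fold change -4.56 ± 0.18 SE, edgeR adjusted p = 1.45e-07) and 11.4-fold in GS115-YPAH5x (log2 fold change -3.51 ± 0.17 SE, edgeR adjusted p = 7.94e-07). Ordered from the lowest log2 fold change of all genes tested, it took place 9 in the first comparison and place 12 in the second. The direct difference between X33-YPA and GS115-YPAH5x was a log2 fold change of -1.05 (SE 0.18, edgeR adjusted p = 0.00198).

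BQ9382_C1-0050, described as a C6 transcription factor, was the other member that fell strongly. It had 54.8 and 56.9 CPM in the GS115-YPA libraries, 6.86 and 6.72 CPM in those of X33-YPA and 5.73 and 7.22 CPM in those of GS115-YPAH5x. Both GS115-YPA libraries were high and the other 4 lay close together, with X33-YPA inside the range of GS115-YPAH5x. The gene fell 8.23-fold in X33-YPA (log2 fold change -3.04 ± 0.16 SE, edgeR adjusted p = 5.28e-07) and 8.64-fold in GS115-YPAH5x (log2 fold change -3.11 ± 0.16 SE, edgeR adjusted p = 8.98e-07). Its places from the lowest were 60 and 28. The direct difference was 0.07 with a 95% interval from -0.29 to 0.43, which does not show that the groups are alike.

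*CAT8* in *S. cerevisiae* activates genes of gluconeogenesis and the glyoxylate cycle when no fermentable sugar is present. The study names more than 1 Cat8 protein among the regulators of acetate metabolism in *K. phaffii*. Which of them BQ9382_C2-2830, the member of this orthology group, encodes was not settled here. This member had 16.4 and 20.4 CPM in the GS115-YPA libraries, 22.8 and 21.9 CPM in those of X33-YPA and 40.5 and 36.7 CPM in those of GS115-YPAH5x. The groups did not overlap, and the histidine-supplemented libraries were well above the rest. It rose 2.10-fold in GS115-YPAH5x (log2 fold change 1.07 ± 0.15 SE, edgeR adjusted p = 0.000222), whereas the value in X33-YPA was 0.28 (SE 0.15, edgeR adjusted p = 0.129), which passed without library B (0.44). X33-YPA was lower than GS115-YPAH5x (log2 fold change -0.79 ± 0.15 SE, edgeR adjusted p = 0.00338).

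Of 6 genes that *CAT8* is known to activate in *S. cerevisiae*, 4 rose in X33-YPA while 2 fell, and in GS115-YPAH5x there were 4 that rose and none that fell. The background for these counts was 33.4% of all genes higher and 32.8% lower in X33-YPA. For GS115-YPAH5x it was 30.7% and 29.1%. Isocitrate lyase, BQ9382_C1-5905, which starts the glyoxylate bypass, had 1150 and 1170 CPM in the GS115-YPA libraries, 1740 and 1590 CPM in those of X33-YPA and 2310 and 2360 CPM in those of GS115-YPAH5x. Its log2 fold changes were 0.52 and 1.01 (SE 0.13 and 0.14). Malate synthase (*MLS1*, BQ9382_C4-4310), of the same cycle, fell in X33-YPA (log2 fold change -0.94, SE 0.15). In GS115-YPAH5x *MLS1* had 0.26 (SE 0.15, edgeR adjusted p = 0.161). Phosphoenolpyruvate carboxykinase, BQ9382_C1-8050, the entry step of gluconeogenesis, had 15000 and 18400 CPM in the GS115-YPA libraries, 11100 and 10900 CPM in those of X33-YPA and 20000 and 19600 CPM in those of GS115-YPAH5x. It fell in X33-YPA (log2 fold change -0.61, SE 0.15) and had 0.24 (SE 0.15, edgeR adjusted p = 0.186) in GS115-YPAH5x. Fructose-1,6-bisphosphatase, BQ9382_C3-1700, another enzyme of gluconeogenesis, rose in both, with 0.72 and 0.59 (SE 0.15 for each). *ACS1* (BQ9382_C2-2770) rose most of the 6, with 1.8 and 1.74 (SE 0.19 for each). *SFC1* (BQ9382_C4-1470) rose with 1.12 and 1.41 (SE 0.14 for each). Compared directly, 3 of the 6 were lower in X33-YPA than in GS115-YPAH5x and none was higher. Of all genes 21.6% were lower and 19.8% higher there. Binding of the *K. phaffii* protein to these genes was not measured.

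*ARG81* in *S. cerevisiae* is the arginine sensor of a complex that represses arginine synthesis genes and activates arginine breakdown. BQ9382_C2-6870 had 40.0 and 37.6 CPM in the GS115-YPA libraries, 39.3 and 45.1 CPM in those of X33-YPA and 34.1 and 30.0 CPM in those of GS115-YPAH5x. Its libraries overlapped between GS115-YPA and X33-YPA, and those of GS115-YPAH5x were the lowest. The log2 fold changes were 0.12 (SE 0.14, edgeR adjusted p = 0.46) and -0.27 (SE 0.14, edgeR adjusted p = 0.113), the second of which passed with library totals (-0.48). The direct difference passed narrowly (0.40, SE 0.14, edgeR adjusted p = 0.0444), and did not pass with DESeq2 (0.38) or without any 1 of libraries C to F (0.29 to 0.49).

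The 4 arginine synthesis genes listed for *ARG81* were high in GS115-YPA alone. All 4 fell in X33-YPA, the median being -2.75 on the log2 scale, and all 4 fell in GS115-YPAH5x, with a median of -2.52. Among all genes 32.8% fell in X33-YPA and 29.1% in GS115-YPAH5x. Ornithine carbamoyltransferase (*ARG3*, BQ9382_C3-3090) had 109 and 132 CPM in the GS115-YPA libraries, 7.0 and 6.26 CPM in those of X33-YPA and 10.2 and 11.1 CPM in those of GS115-YPAH5x. No library of the other groups came near those of GS115-YPA, and the log2 fold changes were -4.19 and -3.50 (SE 0.17 and 0.16). Argininosuccinate synthase (*ARG1*, BQ9382_C3-5320) fell with log2 fold changes of -2.61 and -2.49 (SE 0.19 for each). In the direct comparison, where 21.6% of all genes were lower, 1 of the 4, *ARG3*, was lower in X33-YPA, and the other 3 did not pass.

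*LEU3* in *S. cerevisiae* regulates genes of leucine and branched-chain amino acid synthesis in response to an intermediate of leucine synthesis. BQ9382_C3-2340 had 6.33 and 10.9 CPM in the GS115-YPA libraries, 13.5 and 12.5 CPM in those of X33-YPA and 11.2 and 14.9 CPM in those of GS115-YPAH5x. Libraries A and B differed more for this gene, by a log2 ratio of 0.78, than for any other member. The log2 fold changes were 0.59 (SE 0.25, edgeR adjusted p = 0.0598) in X33-YPA and 0.60 (SE 0.25, edgeR adjusted p = 0.0625) in GS115-YPAH5x. Both passed with DESeq2 (0.58 and 0.60), without library B (1.03 and 1.04) and without library E (0.59 and 0.79), and the first also passed when libraries were scaled by their totals (0.67).

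Of 5 listed genes of branched-chain amino acid synthesis, 4 fell in X33-YPA while 1 rose, and in GS115-YPAH5x there were 4 that fell and none that rose. For comparison, the test called 32.8% of all genes lower and 33.4% higher in X33-YPA. The corresponding shares for GS115-YPAH5x were 29.1% and 30.7%. Isopropylmalate isomerase (*LEU1*, BQ9382_C2-5010) had 243 and 397 CPM in the GS115-YPA libraries, 33.9 and 33.7 CPM in those of X33-YPA and 57.4 and 74.5 CPM in those of GS115-YPAH5x. Its groups did not overlap, and it fell with log2 fold changes of -3.24 and -2.28 (SE 0.24 and 0.23). Isopropylmalate dehydrogenase (*LEU2*, BQ9382_C3-6355) fell less in X33-YPA (-0.62, SE 0.14) than in GS115-YPAH5x (-1.61, SE 0.14), with a direct difference of 1.0 (SE 0.14, edgeR adjusted p = 0.000884). *ILV5* (BQ9382_C1-3900), the acetohydroxyacid reductoisomerase gene, was the one that rose, with 0.49 (SE 0.13) in X33-YPA, and had 0.25 (SE 0.13, edgeR adjusted p = 0.124) in GS115-YPAH5x.

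**Figure D2:**
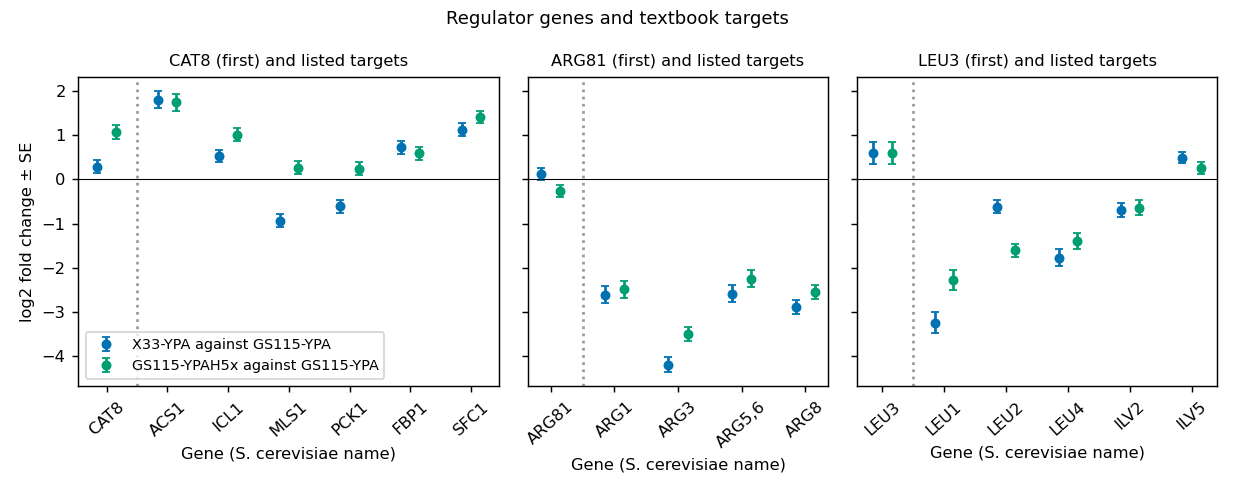
Log2 fold change against GS115-YPA, with SE bars, of the 3 regulator genes (left of the dotted line) and of 6, 4 and 5 textbook targets, in X33-YPA (blue) and GS115-YPAH5x (green). The 4 arginine genes lie at -2.25 or below while *ARG81* lies between -0.27 and 0.12.

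A ketoconazole resistance role was given in the description of BQ9382_C2-5805, a zinc cluster activator. Ketoconazole is an antifungal drug that blocks ergosterol synthesis. The gene had 19.0 and 22.4 CPM in the GS115-YPA libraries, 31.7 and 30.7 CPM in those of X33-YPA and 30.9 and 32.1 CPM in those of GS115-YPAH5x. It was lowest in GS115-YPA and overlapping between the other groups. The rise was 0.59 in X33-YPA (SE 0.14, edgeR adjusted p = 0.00379) and 0.60 in GS115-YPAH5x (SE 0.14, edgeR adjusted p = 0.00411), and the direct difference was -0.01 (95% interval -0.32 to 0.30).

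BQ9382_C4-4245, described as a proposed activator of the Gal4p family, did not pass in either comparison with GS115-YPA. It had 22.2 and 31.4 CPM in the GS115-YPA libraries, 23.2 and 17.5 CPM in those of X33-YPA and 32.7 and 33.8 CPM in those of GS115-YPAH5x. Library A lay between those of X33-YPA and library B close to GS115-YPAH5x. X33-YPA was lower than GS115-YPAH5x (log2 fold change -0.71 ± 0.19 SE, edgeR adjusted p = 0.0166). That call was lost without library D (-0.52), without library F (-0.69) and with library totals (-0.44). Against GS115-YPA, its value in X33-YPA passed as a fall without library A (-0.67) or C (-0.66), and its value in GS115-YPAH5x passed as a rise without library B (0.58).

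BQ9382_C3-3790, a zinc finger transcription factor of the binuclear cluster type, had the largest rise among members in X33-YPA. It had 12.8 and 12.1 CPM in the GS115-YPA libraries, 24.2 and 28.7 CPM in those of X33-YPA and 19.5 and 19.8 CPM in those of GS115-YPAH5x. The 3 groups did not overlap, with X33-YPA highest. It rose 2.13-fold in X33-YPA (log2 fold change 1.09 ± 0.15 SE, edgeR adjusted p = 0.000133) and by 0.66 in GS115-YPAH5x (SE 0.15, edgeR adjusted p = 0.00379). The direct difference of 0.43 (SE 0.15, edgeR adjusted p = 0.0401) did not pass without library D (0.30), E (0.42) or F (0.44).

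BQ9382_C3-6090, a potential zinc cluster transcription factor, rose most among members in GS115-YPAH5x. Its levels were 29.6 and 31.4 CPM in the GS115-YPA libraries, 54.1 and 48.0 CPM in those of X33-YPA and 70.7 and 66.1 CPM in those of GS115-YPAH5x. Again the groups did not overlap, here with GS115-YPAH5x highest. It rose 2.24-fold in GS115-YPAH5x (log2 fold change 1.17 ± 0.13 SE, edgeR adjusted p = 5.63e-05) and by 0.74 in X33-YPA (SE 0.13, edgeR adjusted p = 0.000733). X33-YPA was lower than GS115-YPAH5x (-0.42, SE 0.13, edgeR adjusted p = 0.0279), which did not pass without any 1 of libraries C to F (-0.34 to -0.51) or with library totals (-0.15).

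BQ9382_C1-1610, of the same description, differed most among the 18 members between X33-YPA and GS115-YPAH5x, and took place 224 from the lowest of all genes there. It had 47.7 and 60.4 CPM in the GS115-YPA libraries, 45.4 and 37.8 CPM in those of X33-YPA and 85.1 and 115 CPM in those of GS115-YPAH5x. The supplemented libraries were the highest and X33-YPA the lowest. It rose in GS115-YPAH5x (log2 fold change 0.89 ± 0.19 SE, edgeR adjusted p = 0.00247), and the value in X33-YPA was -0.38 (SE 0.19, edgeR adjusted p = 0.0966), which passed without library A (-0.58). The direct difference was -1.26 (SE 0.19, edgeR adjusted p = 0.00113).

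BQ9382_C1-0065, a binuclear cluster domain gene, rose in X33-YPA. Its levels were 23.7 and 24.8 CPM in the GS115-YPA libraries, 45.0 and 31.9 CPM in those of X33-YPA and 27.0 and 27.9 CPM in those of GS115-YPAH5x. Library C alone was far above the others, and the X33-YPA duplicates differed most for this gene among the members, by a log2 ratio of 0.50. The log2 fold change was 0.66 (SE 0.17, edgeR adjusted p = 0.00634), and without library C it was 0.35 and did not pass. In GS115-YPAH5x it was 0.18 (SE 0.17, edgeR adjusted p = 0.387). The direct difference of 0.48 (SE 0.17, edgeR adjusted p = 0.0445) did not pass without library C (0.22), E (0.46) or F (0.50).

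BQ9382_C4-2020, a potential zinc cluster transcription factor, fell in both comparisons with GS115-YPA. It had 74.2 and 88.4 CPM in the GS115-YPA libraries, 27.8 and 35.8 CPM in those of X33-YPA and 46.1 and 50.2 CPM in those of GS115-YPAH5x. The order was GS115-YPA, GS115-YPAH5x and X33-YPA, with no overlap. The log2 fold changes were -1.35 (SE 0.16, edgeR adjusted p = 5.80e-05) and -0.76 (SE 0.16, edgeR adjusted p = 0.00265). The direct difference of -0.60 (SE 0.16, edgeR adjusted p = 0.0157) was lost without library C (-0.42), without library F (-0.54) and with library totals (-0.33).

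Smaller falls were seen for BQ9382_C3-6470 and BQ9382_C2-1290. BQ9382_C3-6470, with a binuclear cluster domain, had 2.55 and 4.01 CPM in the GS115-YPA libraries, 1.93 and 1.59 CPM in those of X33-YPA and 2.58 and 2.63 CPM in those of GS115-YPAH5x. It fell in X33-YPA by a log2 fold change of -0.90 (SE 0.29, edgeR adjusted p = 0.0194), which did not pass without library B (-0.54) or D (-0.81), and had -0.34 (SE 0.28, edgeR adjusted p = 0.327) in GS115-YPAH5x. BQ9382_C2-1290, a transcription factor with a zinc cluster motif, had 15.1 and 14.8 CPM in the GS115-YPA libraries, 12.0 and 11.3 CPM in those of X33-YPA and 8.90 and 11.6 CPM in those of GS115-YPAH5x. It fell in GS115-YPAH5x (log2 fold change -0.55 ± 0.17 SE, edgeR adjusted p = 0.0206) but not without library E (-0.37), and had -0.36 (SE 0.17, edgeR adjusted p = 0.0866) in X33-YPA.

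**Figure D3:**
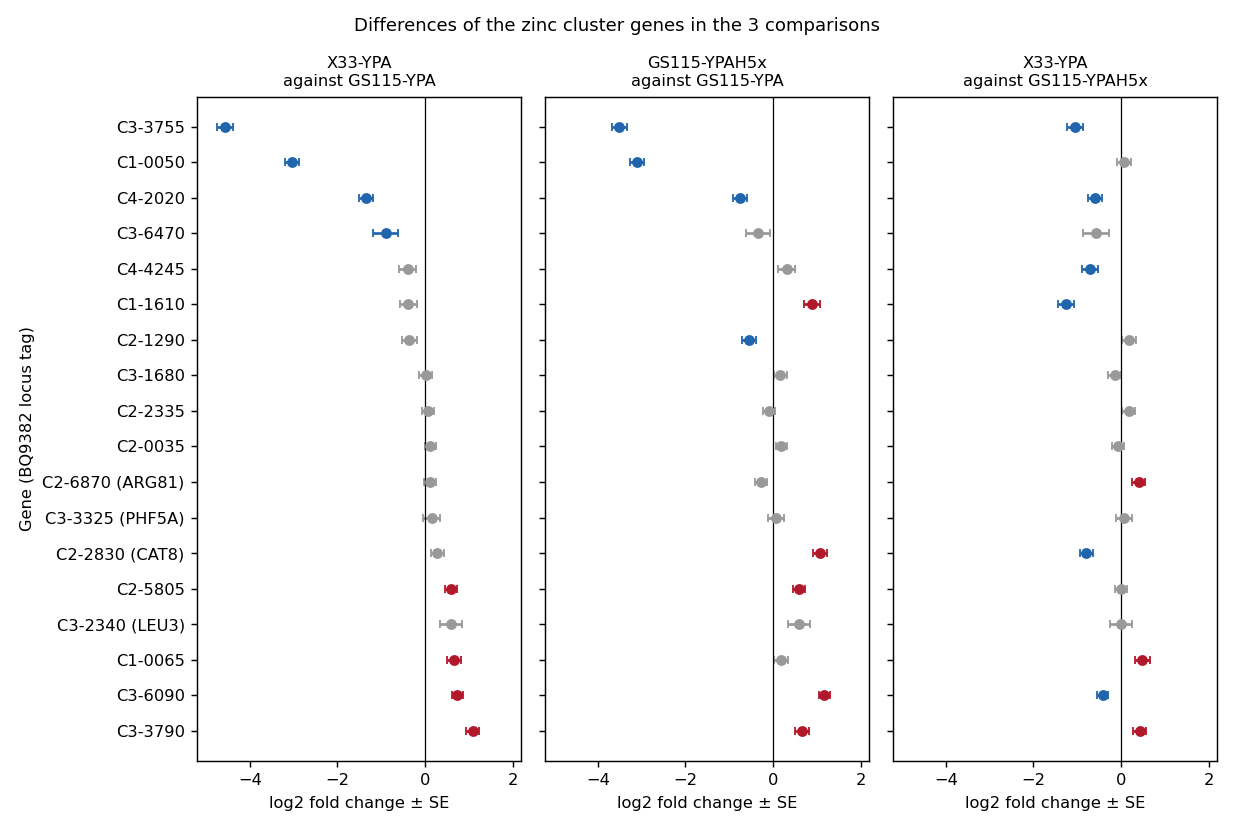
Log2 fold change with SE bars of the 18 members in the 3 comparisons, with one row per gene in the order of the first comparison. Blue points were lower, red points higher and grey points did not pass an adjusted p of 0.05, and C3-3755 and C1-0050 are the only members beyond -2.

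Of the remaining 4 members, none passed in any of the 3 comparisons with TMM scaling. The splicing gene BQ9382_C3-3325 had 7.95 and 6.37 CPM in the GS115-YPA libraries, 8.48 and 7.35 CPM in those of X33-YPA and 7.98 and 7.04 CPM in those of GS115-YPAH5x. All its groups overlapped, and its log2 fold changes were 0.15 (95% interval -0.29 to 0.58) and 0.07 (95% interval -0.36 to 0.51). BQ9382_C2-0035, with a binuclear cluster domain, had 0.12 (95% interval -0.16 to 0.41) and 0.19 (95% interval -0.10 to 0.48). BQ9382_C2-2335, a zinc finger factor with the same domain, had 0.07 (95% interval -0.25 to 0.38) and -0.10 (95% interval -0.41 to 0.21). BQ9382_C3-1680, a potential zinc cluster factor, had 0.01 (95% interval -0.33 to 0.34) and 0.16 (95% interval -0.18 to 0.50). Across libraries BQ9382_C2-0035 ranged between 46.4 and 58.3 CPM, BQ9382_C2-2335 between 25.2 and 29.6 CPM, and BQ9382_C3-1680 between 19.7 and 25.9 CPM. The direct differences were 0.07 for BQ9382_C3-3325, -0.07 for BQ9382_C2-0035, 0.17 for BQ9382_C2-2335 and -0.15 for BQ9382_C3-1680, of which that of BQ9382_C2-2335 passed with library totals (0.44).

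The direct comparison of X33-YPA with GS115-YPAH5x does not use libraries A and B, although they enter its estimate of the spread. Of the 18 members, 3 were higher, 6 lower and 9 did not pass, against 19.8% higher and 21.6% lower over all genes. The median log2 fold change was -0.04, and 0.03 over all genes. Those lower by a log2 fold change of 1 or more were BQ9382_C1-1610 and BQ9382_C3-3755, a threshold at which 391 of the 5426 genes were lower. Without libraries E or F none of the 3 higher calls was left and without C or D 1 was, and without F 3 of the lower calls were left. With library totals in place of TMM, which raised the median of all genes by 0.27, 4 were higher and 3 lower, while 37.6% of all genes were higher and 12.4% lower under that scaling.

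Libraries of 2 groups did not overlap for 13 members in X33-YPA against GS115-YPA, for 14 in GS115-YPAH5x against GS115-YPA, and for 12 in the direct comparison. Over all genes this held for 81.5%, 80.9% and 77.9%. Of the non-overlapping members, 5, 5 and 3 did not pass the test, and every member that passed had groups without overlap.

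Genes that are not members but carry the same pair of ontology terms were listed as zinc cluster genes by ontology. Since neither term names a zinc cluster, this label says only that both terms were carried. There were 42 such genes. Of these, 10 had no regulator word in their description, among them BQ9382_C1-5650, described as protein transport protein SEC31. In X33-YPA 10 of the 42 (23.8%) were higher and 20 (47.6%) lower, and their median was -0.19 on the log2 scale. Among all genes 33.4% were higher and 32.8% lower there, with a median of 0.01. In GS115-YPAH5x 16 (38.1%) were higher and 11 (26.2%) lower, with a median of 0.12. The shares of all genes were 30.7% and 29.1%, with a median of 0.00. With library totals 13 of the 42 were higher and 14 lower, with a median of -0.08. Under that scaling 22.6% of all genes were higher and 37.4% lower, with a median of -0.20. The members reached lower values than any of the 42, whose lowest were -2.01 and -2.59, and the 42 reached higher ones, up to 2.01 and 2.69, against 1.09 and 1.17 for members.

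The genes at these ends were named after their values were seen. BQ9382_C3-1905, named after an uncharacterized regulator of *S. cerevisiae*, had 126 and 198 CPM in the GS115-YPA libraries, 719 and 590 CPM in those of X33-YPA and 1050 and 1050 CPM in those of GS115-YPAH5x. BQ9382_C2-5290, described as an acetamidase regulatory protein, had 79.2 and 76.7 CPM in the GS115-YPA libraries, 18.5 and 20.2 CPM in those of X33-YPA and 12.8 and 13.0 CPM in those of GS115-YPAH5x. The first was highest in the supplemented libraries and the second highest in GS115-YPA, without overlap. BQ9382_C1-7935, of the *GAL4* orthology group, fell in X33-YPA (log2 fold change -1.04 ± 0.23 SE, edgeR adjusted p = 0.0029) and rose in GS115-YPAH5x (0.60, SE 0.23, edgeR adjusted p = 0.0444).

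In the direct comparison 4 of the 42 had a higher level in X33-YPA and 20 a lower one, with a median of -0.39. Of all genes 19.8% were higher and 21.6% lower, with a median of 0.03. With library totals these counts were 7 and 13 and the median was -0.12, against a median of 0.29 over all genes and the shares of 37.6% higher and 12.4% lower given above. A wider list of 132 transcription factor genes by description, which shares 19 genes with the 42 and by its wording also takes in 2 genes described with HMG-CoA, had 33 higher and 49 lower in X33-YPA and 57 higher and 37 lower in GS115-YPAH5x, where library totals gave 48 and 46. Directly, 8 (6.06%) of the 132 were higher and 59 (44.7%) lower, against 19.8% and 21.6% of all genes. With library totals these were 23 (17.4%) and 38 (28.8%), against 37.6% and 12.4% of all genes. In X33-YPA 7 (15.9%) of the 44 zinc finger genes of this list were higher and 25 (56.8%) lower, against 33.4% and 32.8% of all genes. In GS115-YPAH5x 12 (27.3%) were higher and 20 (45.5%) lower, against 30.7% and 29.1% of all genes. The difference between members and these lists was not tested.

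**Figure D4:**
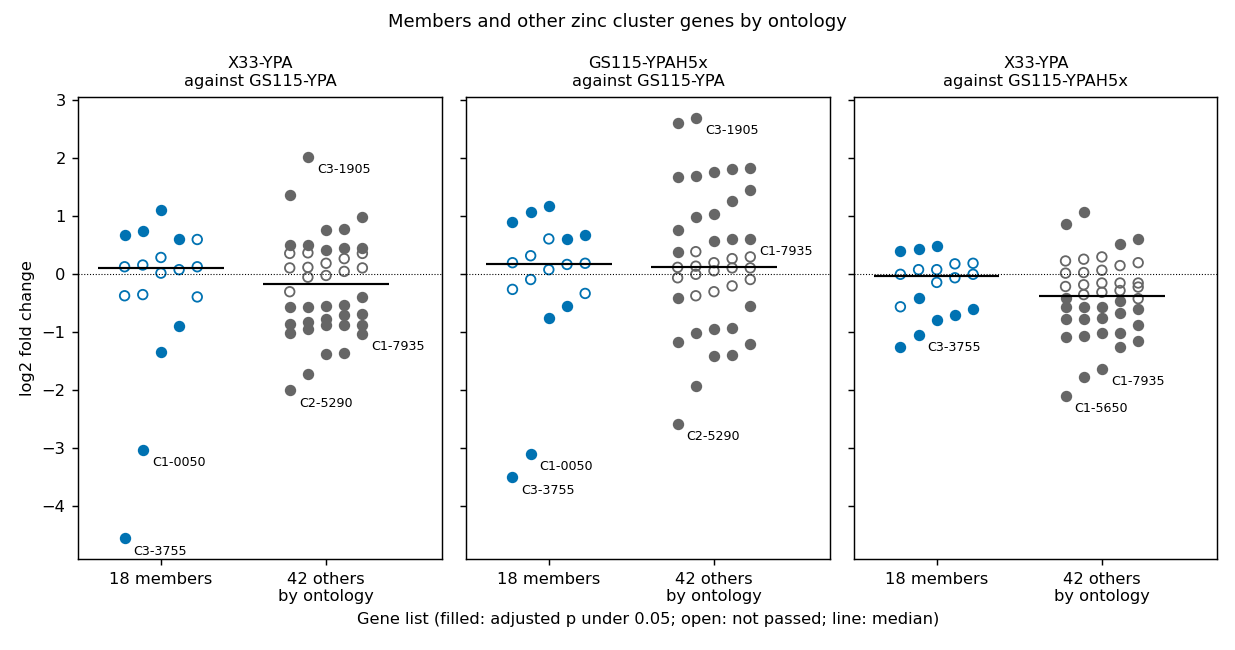
Log2 fold change of the 18 members (blue) and of the 42 other zinc cluster genes by ontology (grey) in the 3 comparisons, one point per gene, filled where the adjusted p was under 0.05, with the median of each list as a line. In the direct comparison the medians were -0.04 and -0.39.

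Members lay on all 4 numbered parts of the locus tags, with 3, 6, 7 and 2 members on parts 1 to 4. Genomic coordinates were not at hand, so neighbours were read from the order of locus tags, up to 5 rows on each side, after the values of both strongly lowered members had been seen. Another zinc cluster gene by ontology lay in this window for 4 of the 18 members, and 10 of the 59 zinc cluster genes by ontology had one. BQ9382_C1-0050 and BQ9382_C1-0065 lay 3 rows apart and had log2 fold changes of -3.04 and 0.66 in X33-YPA.

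Of the 10 neighbours of BQ9382_C1-0050, 3 were higher and 4 lower in X33-YPA, and 2 higher and 5 lower in GS115-YPAH5x. The adjacent gene BQ9382_C1-0055, with an NAD(P)-binding Rossmann fold, fell with -1.31 and -1.99 (SE 0.21 and 0.22), and the adjacent gene on the other side, BQ9382_C1-0045, with an FAD/NAD(P)-binding domain, had -0.19 and 0.24 (SE 0.21 for each) and did not pass. BQ9382_C1-0025, a predicted protein 5 rows away, rose with 2.58 and 2.87 (SE 0.15 and 0.16). The window thus held genes that moved in opposite directions, which is not particular to it given the shares over all genes.

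Of the 10 neighbours of BQ9382_C3-3755, 3 were higher and 5 lower in X33-YPA, and 4 higher and 3 lower in GS115-YPAH5x. The adjacent BQ9382_C3-3760, with SH3 domains, fell with -2.21 and -2.56 (SE 0.20 for each). On the other side BQ9382_C3-3750, with a Rossmann fold, rose in X33-YPA (1.08, SE 0.22) and had -0.15 (SE 0.22, edgeR adjusted p = 0.574) in GS115-YPAH5x. The zinc cluster gene BQ9382_C3-3735, 4 rows away, fell with -1.38 and -1.40 (SE 0.13 for each), whereas BQ9382_C3-3780, described as a proline utilization activator, had 0.10 (SE 0.18, edgeR adjusted p = 0.644) and 1.26 (SE 0.18, edgeR adjusted p = 0.000241).

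**Figure D5:**
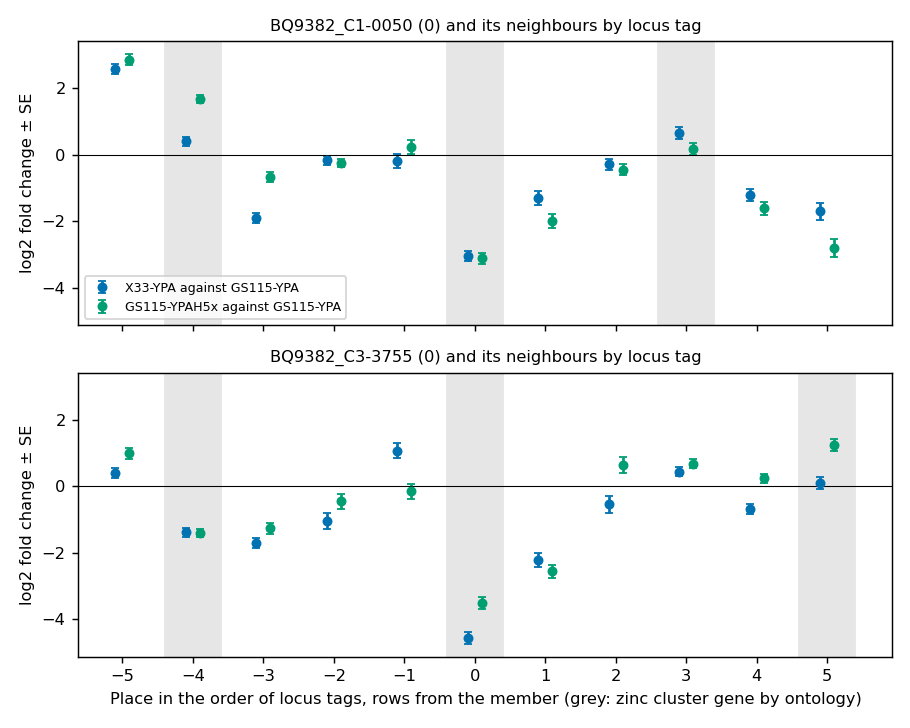
Log2 fold change against GS115-YPA with SE bars of BQ9382_C1-0050 and BQ9382_C3-3755 (at 0) and of the 5 rows on each side in the order of locus tags, in X33-YPA (blue) and GS115-YPAH5x (green). Grey bands mark zinc cluster genes by ontology, and each member is the lowest point of its window.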

How the data were processed

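Per the labels, ribosomal RNA was depleted with a bacterial kit before the Komagataella libraries were made. The authors deposited whole-number read counts of each gene for each library, without pooling. Tools listed in the submitters' processing notes are featureCounts 1.6.4, Bowtie2, fastp 0.19.6, bcl2fastq 2.19.0.316 and DESeq2. The strand setting, like the genome build, is not given in the sources used here. Counts were fitted with edgeR 4.0.16 in R 4.3.3 (expression filter, TMM, legacy quasi-likelihood, 3 residual degrees of freedom, common biological coefficient of variation 0.132), with Benjamini-Hochberg adjustment within each of 3 comparisons. The SE was taken from the F value, and 95% intervals from it. The procedure was also run on simulated counts in which few genes changed, whereas 66.2% of all genes were called in X33-YPA. That run therefore does not test the scaling of these data. Named genes are BQ9382_C1-0050 and BQ9382_C1-0065, the 4 members with the highest and the 4 with the lowest log2 fold change among those called in each comparison, the 3 members with the highest and the 3 with the lowest mean CPM, and members named after a known regulator (by orthology group); the remaining members were added. Members and lists, targets of the named regulators included, were chosen with earlier results of these data known. Alternatives were DESeq2 1.42.0, other scalings, filters, fits, thresholds and memberships, and each library left out in turn. Of the locus tags, 0 matched the reference table of a related strain, so it was not used.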

Additional observations from a re-analysis of the deposited data

Results flagged for a closer look

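BQ9382_C1-7935, a zinc cluster gene by ontology of the *GAL4* orthology group, was lower in X33-YPA and higher in GS115-YPAH5x than in GS115-YPA, and the direct difference between X33-YPA and GS115-YPAH5x on the log2 scale was -1.64 (SE 0.23, edgeR adjusted p = 0.000958). Its levels were 118 and 212 CPM in the GS115-YPA libraries, 81.2 and 79.4 CPM in those of X33-YPA and 252 and 248 CPM in those of GS115-YPAH5x. Libraries A and B of GS115-YPA were far apart for this gene, and the groups did not overlap. The rise in GS115-YPAH5x passed narrowly (0.60, SE 0.23, edgeR adjusted p = 0.0444). How far it depends on single libraries or on the scaling is not given here. It was the only gene among the members and the 42 other zinc cluster genes by ontology that passed the test in opposite directions against GS115-YPA and also passed it in the direct comparison.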

How the results depend on the processing

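No paired analysis was possible because the letters A to F give each library a name of its own and no number is shared between groups. A log2 fold change of at least 1 left 1 member higher and 3 lower in X33-YPA (all genes 852 and 926 of 5426), 2 higher and 2 lower in GS115-YPAH5x (693 and 683), and 0 higher and 2 lower in the direct comparison (157 and 391). At a log2 fold change of at least 2, 0 were higher and 2 lower in X33-YPA (all genes 138 and 231), 0 and 2 in GS115-YPAH5x (142 and 147), and 0 and 0 directly (2 and 40). Membership by both ontology terms gave 14 higher and 24 lower of 59 in X33-YPA, 21 and 15 in GS115-YPAH5x, and 7 and 26 directly. The shares of all genes were 33.4% and 32.8%, 30.7% and 29.1%, and 19.8% and 21.6%. With library totals 3 members were lower directly. Without each library in turn, 3 to 6 members were higher and 3 to 6 lower in X33-YPA, 5 to 7 and 3 to 4 in GS115-YPAH5x, and 0 to 3 and 3 to 6 directly. Where leaving out a library left a group with 1 library, that library was taken to vary like the others.

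No member that passed the test changed its sign under any alternative run. Signs changed only for values that did not pass. In X33-YPA, BQ9382_C3-1680 had -0.01 with RLE size factors, -0.05 with at least 1 CPM in all libraries, -0.02 with only the groups compared and -0.01 with DESeq2. With library totals, GS115-YPAH5x gave -0.02 for BQ9382_C1-0065, -0.01 for BQ9382_C2-0035, -0.04 for BQ9382_C3-1680 and -0.13 for BQ9382_C3-3325, and the direct comparison gave 0.20 for BQ9382_C2-0035, 0.26 for BQ9382_C2-5805, 0.12 for BQ9382_C3-1680 and 0.26 for BQ9382_C3-2340. This scaling moved the median of all genes by 0.06, -0.20 and 0.27 in the 3 comparisons. With libraries left out, values in X33-YPA ranged from -0.05 to 0.15 for BQ9382_C2-2335, -0.03 to 0.18 for BQ9382_C2-6870, -0.17 to 0.15 for BQ9382_C3-1680 and -0.01 to 0.27 for BQ9382_C3-3325. In GS115-YPAH5x they ranged from -0.02 to 0.31 for BQ9382_C3-1680, -0.08 to 0.20 for BQ9382_C3-3325 and -0.66 to 0.03 for BQ9382_C3-6470. Directly they ranged from -0.09 to 0.24 for BQ9382_C1-0050, -0.14 to 0.00 for BQ9382_C2-0035, -0.04 to 0.01 for BQ9382_C2-5805, -0.20 to 0.20 for BQ9382_C3-2340 and -0.03 to 0.17 for BQ9382_C3-3325. Of 54 values of members, 50 kept direction and call with DESeq2, 53 with RLE size factors and 54 with the robust option or without a filter. Fewer, 40, did so with library totals, where 3 calls were lost, 3 gained and 8 signs changed. Leaving out single libraries also lost or gained calls, as given above. With 2 libraries a group, the spread between duplicates limits precision. For BQ9382_C3-6470, with 69 to 175 counts per library, low depth adds to this.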
